A study of Mus musculus with 96 samples.

Results

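The comparison described here is that of the whole striatum of R6/2 mice with the whole striatum of NCAR mice at 1 month of age, taken from the library descriptions as 4 R6/2 and 4 NCAR input libraries, which are 8 of the 96 libraries of the series. R6/2 mice carry a transgene made from the start of the human huntingtin gene with an expanded CAG repeat and are a fast model of Huntington's disease. NCAR is the label of the control mice without further explanation. Per the labels, both groups were mice of a CBA and C57BL/6 cross, all received an adeno-associated virus in the striatum, and the virus cargo is not named. Input RNA is polyA RNA of the whole tissue, and the same ages also gave IP libraries of immunoprecipitated RNA, whose tag or cell type the labels do not name although the series title concerns astrocytes. The labels do not state whether each library is from its own mouse. The p-values therefore set the genotype difference against the spread of these libraries, which may not be that of separate mice. Libraries are numbered within a group, and the numbers carry no pairing.

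The striatum is made up mainly of medium spiny neurons, inhibitory projection neurons that read glutamate input from cortex and thalamus and dopamine input from the midbrain. Direct pathway neurons carry the D1 dopamine receptor and make substance P and dynorphin, and indirect pathway neurons carry the D2 dopamine receptor and the adenosine receptor encoded by Adora2a and make enkephalin. Both kinds pass receptor signals through cyclic AMP, and loss of their receptor, phosphodiesterase and peptide mRNAs is a known feature of Huntington's disease and its models. In RNA of a whole tissue, fewer cells of a type and less RNA per cell cannot be told apart.

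The R6/2 libraries held 29590204 to 43520438 reads and the NCAR libraries 35228970 to 41243067. Gene levels are expressed in CPM, the usual depth-scaled unit of read counts, with TMM scaling between libraries, and differences are log2 fold changes of R6/2 over NCAR with their standard error from limma. The defining medium spiny neuron genes Ppp1r1b, Pde10a and Adora2a were measured in every library. R6/2 replicates 2 and 4 stood apart from the other 6 libraries on the first principal component, which held 32.6% of the variance, at 32.2 and 58.5 against -25.5 to -5.61. The summed level of 30 myelin genes was 8844 and 7652 CPM in these 2 libraries, against 12720 and 14830 CPM in the other R6/2 libraries and 13690 to 15040 CPM in the NCAR libraries. The summed level of 23 endothelial and mural genes was 372 and 355 CPM in these 2 libraries, against 470 and 492 CPM in the other R6/2 libraries and 489 to 530 CPM in the NCAR libraries. The part of library differences in the results below was not tested.

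The mouse Htt gene was not called between the genotypes. It had 279, 276, 280 and 272 CPM in R6/2 libraries, against 270, 304, 274 and 277 CPM in NCAR libraries, a difference of -0.02 ± 0.05 (limma, adjusted p = 0.825). The libraries overlapped, and the human transgene itself was not analysed here. Gm12695, the mouse gene on chromosome 4 into which the R6/2 transgene is known to be inserted, had 5.56, 5.38, 7.74 and 6.23 CPM in R6/2 libraries, against 0.233, 0.0876, 0.123 and 0.155 CPM in NCAR libraries. Every R6/2 library was far above every NCAR library (5.38 ± 0.33, limma, adjusted p = 2.37e-05). The NCAR values were close to the lowest measured levels, so the size of this difference is uncertain. The gene passed the filter on low values through its R6/2 libraries only. Beside 12.3% of all genes tested that were called by limma, the calls among the 15 genes within 2 Mb of Gm12695 were that gene, Jun (-0.39, limma, adjusted p = 0.0403) and Kank4 (-0.75, limma, adjusted p = 0.0394), the last 2 lower in R6/2.

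Of 15490 genes tested, 1910 (12.3%) passed a Benjamini-Hochberg adjusted p of 0.05 in limma, 711 of them higher in R6/2 (4.59%) and 1199 lower (7.74%). Most differences were small. The median log2 fold change was 0.33 among the higher genes and -0.46 among the lower ones, 1244 of the 1910 lay under 0.5 in size, and 25 higher and 131 lower genes reached 1. The 4 R6/2 libraries lay wholly above or below the 4 NCAR libraries for 3046 genes (19.7%), above for 9.34% and below for 10.3% of all tested, including 1803 of those called. With read totals in place of TMM scaling, the trimmed mean of M values, 3045 genes were called and 70.4% of them were higher, in place of 37.2%. Leaving out R6/2 replicate 2, or NCAR replicate 2, 3 or 4, gave 1093, 1100, 1232 and 1106 calls in that order, and leaving out R6/2 replicates 2 and 4 together gave 991, of which 258 were higher and 733 lower.

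Genes that define medium spiny neurons were lower in R6/2. Of 40 genes shared by both kinds of medium spiny neuron, 36 fell, none rose and the median log2 fold change was -0.69, beside -0.00 over all genes tested. Called members made up 90% of the list, beside 12.3% of all genes. A gene can be in more than 1 of the lists here and below. Their summed level was 20110 to 23040 CPM in R6/2 libraries, against 34730 to 37630 CPM in NCAR libraries. Without R6/2 replicates 2 and 4 the list still had 34 members called lower, with a median of -0.62. The 4 members not called were Meis2 (-0.28), Foxp2 (0.03), Strip2 (0.12) and Gpr149 (0.39), and the transcription factors Bcl11b (-0.61) and Foxp1 (-0.36) were among those that fell.

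Pde10a, the phosphodiesterase that breaks down cyclic AMP and cyclic GMP in these neurons (GRCm38 chromosome 17, 8525372 to 8986648), had 884, 998, 1161 and 1142 CPM in R6/2 libraries, against 2730, 2974, 2580 and 2708 CPM in NCAR libraries. The highest R6/2 library stood well below the lowest NCAR library (-1.40 ± 0.09, limma, adjusted p = 2.37e-05). Scn4b, an auxiliary subunit of voltage-gated sodium channels, had 683, 593, 831 and 657 CPM in R6/2 libraries, against 1714, 1972, 1883 and 2030 CPM in NCAR libraries. Its groups were as clearly apart (-1.47 ± 0.10, limma, adjusted p = 2.37e-05). Ryr1, a calcium release channel of the endoplasmic reticulum, had 36.2, 19.2, 43.3 and 18.9 CPM in R6/2 libraries, against 144, 134, 139 and 159 CPM in NCAR libraries. It was lowest in R6/2 replicates 2 and 4 and low in all 4 (-2.39 ± 0.24, limma, adjusted p = 0.000176), and it was at -1.85 without those 2 libraries.

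**Figure D1:**
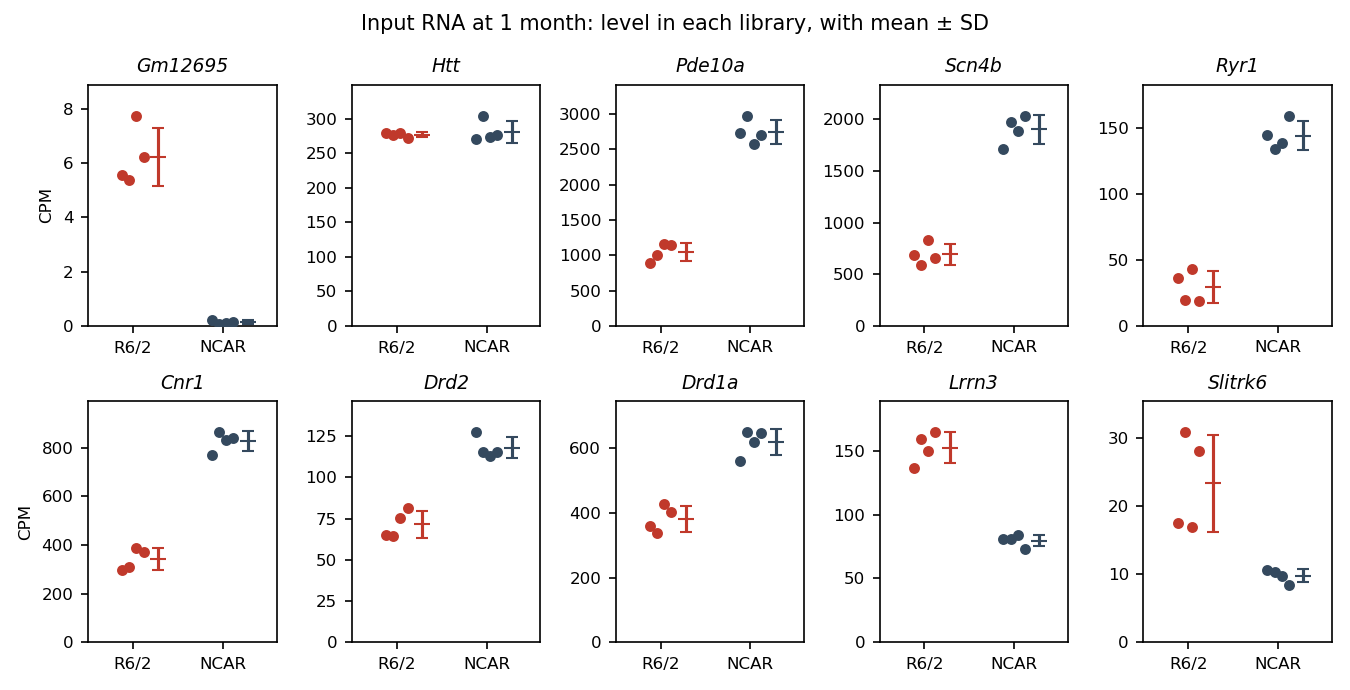
Level in CPM of 10 genes in each input library at 1 month, R6/2 left (red) and NCAR right (dark), with the mean ± SD of 4 libraries beside the points. Htt overlaps between the groups, Gm12695, Lrrn3 and Slitrk6 lie higher in every R6/2 library, and Pde10a, Scn4b, Ryr1, Cnr1, Drd2 and Drd1a lie lower in every R6/2 library.

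The genes of cyclic AMP and G protein signalling fell at several steps of the pathway. Of 49 such genes, 23 fell and 2 rose (51% called, beside 12.3% of all genes), with a median of -0.23. The lowest member, Pde10a, is also in the shared medium spiny neuron list. Adcy5, the main adenylyl cyclase of the striatum, had 1070, 1015, 1220 and 1050 CPM in R6/2 libraries, against 2010, 2354, 2131 and 2147 CPM in NCAR libraries (-0.99 ± 0.07, limma, adjusted p = 3.65e-05). Rgs9, which speeds the shut-off of G proteins downstream of dopamine receptors, had 356, 374, 431 and 407 CPM in R6/2 libraries, against 790, 840, 717 and 793 CPM in NCAR libraries (-1.003 ± 0.0715, limma, adjusted p = 3.65e-05). Neither gene overlapped between the genotypes. Ppp1r1b, which encodes the dopamine-regulated phosphatase inhibitor DARPP-32, also had no overlap, with 716 to 769 CPM in R6/2 libraries against 1288 to 1507 CPM in NCAR libraries (-0.89). Rasgrp2, an activator of the small GTPase Rap1 that responds to calcium and diacylglycerol, had 125, 132, 139 and 142 CPM in R6/2 libraries, against 234, 245, 244 and 259 CPM in NCAR libraries (-0.87 ± 0.06, limma, adjusted p = 2.37e-05). The phosphodiesterases Pde1b (-0.80) and Pde7b (-0.66), the G protein subunits Gng7 (-0.51) and Gnal (-0.31) and the regulator Rgs14 (-0.99) fell too. Pde4d (0.60), a cyclic AMP phosphodiesterase, and Prkar1b (0.34), a regulatory subunit of protein kinase A, were the 2 that rose, against 1 without R6/2 replicates 2 and 4, 4 without R6/2 replicate 3 and 6 by read totals. The catalytic subunits Prkaca (0.01) and Prkacb (0.19) were not called.

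Among 35 receptors for dopamine, opioids, cannabinoids, adenosine, acetylcholine, serotonin, noradrenaline and histamine, 15 fell and 1 rose, with a median of -0.41. Called members made up 45.7% of these receptors, beside 12.3% of all genes. Cnr1, the cannabinoid receptor CB1, had 297, 311, 387 and 372 CPM in R6/2 libraries, against 768, 862, 833 and 840 CPM in NCAR libraries (-1.28 ± 0.09, limma, adjusted p = 2.37e-05). Hrh3, the H3 histamine receptor, had 41.5, 50.1, 47.5 and 49.5 CPM in R6/2 libraries, against 87.8, 103, 81.6 and 83.3 CPM in NCAR libraries (-0.91 ± 0.09, limma, adjusted p = 0.000149). Both were lower in R6/2 with no overlap. The serotonin receptor Htr2c went the other way, with 108, 119, 98.8 and 127 CPM in R6/2 libraries, against 74.4, 74.0, 79.5 and 73.9 CPM in NCAR libraries (0.58 ± 0.08, limma, adjusted p = 0.000818). The serotonin receptor Htr4 (-1.11), the opioid receptors Oprd1 (-0.57) and Oprk1 (-0.41) and the adenosine receptor Adora1 (-0.45) fell, and Oprm1 (0.19) was not called. Without R6/2 replicates 2 and 4, 9 receptors were called lower and 1 higher, with a median of -0.30.

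Both dopamine receptors that separate the 2 kinds of medium spiny neuron fell. Drd1a, the D1 receptor under its older symbol, had 360, 337, 428 and 402 CPM in R6/2 libraries, against 562, 649, 619 and 649 CPM in NCAR libraries (-0.70 ± 0.08, limma, adjusted p = 0.000332). Drd2 had 65.1, 64.6, 75.1 and 81.2 CPM in R6/2 libraries, against 127, 115, 113 and 116 CPM in NCAR libraries (-0.73 ± 0.08, limma, adjusted p = 0.000264). For each receptor, no R6/2 library reached any NCAR library. A difference between the 2 receptors was not tested.

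Taken as lists, the marker genes of the 2 pathways had these counts, with 76.9% of the indirect and 42.9% of the direct list called, beside 12.3% of all genes. Of 13 indirect pathway genes, 10 fell and none rose, with a median of -0.73, and their summed level was 1373 to 1724 CPM in R6/2 libraries, against 2760 to 2862 CPM in NCAR libraries. Of 14 direct pathway genes, 5 fell and 1 rose, with a median of -0.10, and their summed level was 1962 to 2175 CPM in R6/2 libraries, against 2271 to 2607 CPM in NCAR libraries. The difference between the 2 lists was not tested. Under the fits that left out 1 library, the indirect list had 7 to 11 members called lower and the direct list 3 to 5, with 3 without R6/2 replicate 2 or 4 or NCAR replicate 2, 3 or 4.

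Penk, the enkephalin precursor of indirect pathway neurons, had 671, 518, 727 and 588 CPM in R6/2 libraries, against 1388, 1382, 1452 and 1385 CPM in NCAR libraries (-1.17 ± 0.09, limma, adjusted p = 4.17e-05). Adora2a, the adenosine receptor typical of indirect pathway neurons, had 217, 171, 234 and 190 CPM in R6/2 libraries, against 375, 410, 436 and 408 CPM in NCAR libraries (-1.01 ± 0.09, limma, adjusted p = 0.000115). Every R6/2 library was lower than every NCAR library for both genes. Gpr6, an orphan receptor of indirect pathway neurons, had 52.6 to 60.4 CPM in R6/2 libraries, against 84.5 to 97.1 CPM in NCAR libraries (-0.68), and Gpr52 (-0.78) and the transcription factor Sp9 (-0.41) fell too.

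On the direct side, the substance P precursor Tac1 was not called. It had 307, 326, 306 and 383 CPM in R6/2 libraries, against 211, 275, 324 and 305 CPM in NCAR libraries (0.26 ± 0.12, limma, adjusted p = 0.196), with overlapping groups. Isl1, a transcription factor of direct pathway neurons and cholinergic interneurons, had 30.2, 35.9, 33.6 and 41.2 CPM in R6/2 libraries, against 25.0, 26.4, 26.1 and 24.5 CPM in NCAR libraries (0.46 ± 0.09, limma, adjusted p = 0.00921). It was thus higher in R6/2 with no overlap. Chrm4, the M4 muscarinic receptor, had 89.2, 85.5, 97.4 and 93.1 CPM in R6/2 libraries, against 163, 185, 156 and 160 CPM in NCAR libraries (-0.86 ± 0.07, limma, adjusted p = 4.09e-05). Its groups were far apart. The dynorphin precursor Pdyn (-0.44) and the secreted glycoprotein Reln (-0.40) fell, and Ebf1 (0.15), Eya1 (0.27) and Zfp521 (0.09) were not called.

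**Figure D2:**
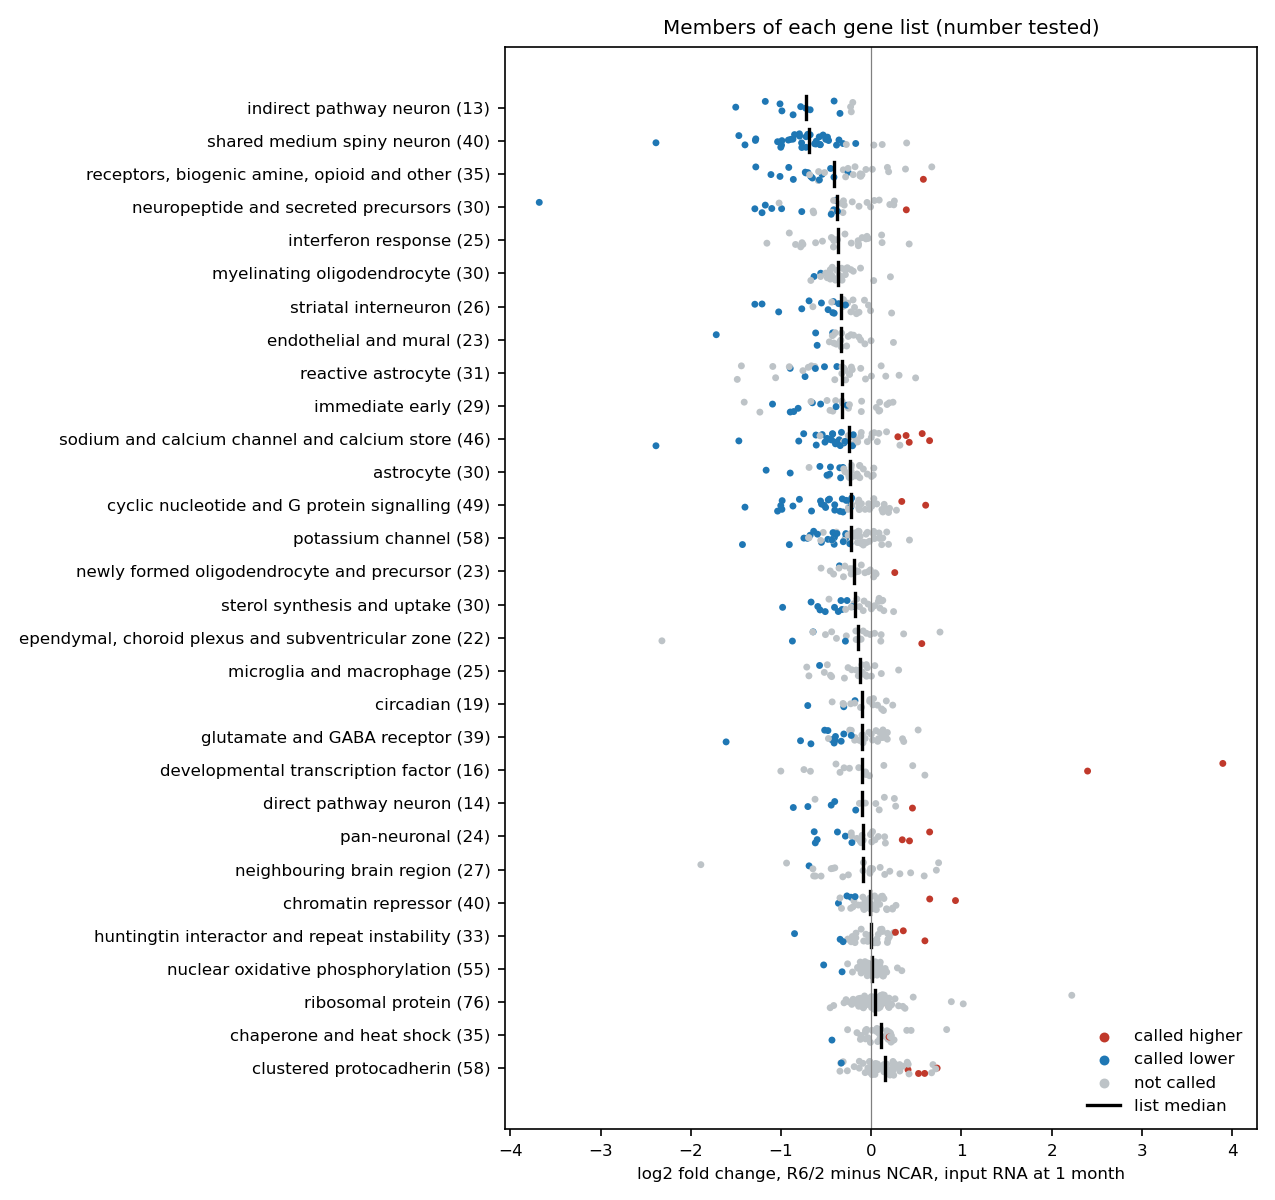
Log2 fold change of each tested member of 30 gene lists, R6/2 minus NCAR in input RNA at 1 month, with called members coloured by direction and a black bar at the list's median. Of the lists drawn, the indirect pathway and shared medium spiny neuron lists have the lowest medians, -0.73 and -0.69, and the clustered protocadherin list the highest, 0.15. Not drawn are the blood list (3 tested, median -0.94) and the Y-linked and X-inactivation list (5 tested, median 0.31).

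Ion channels of the neuronal membrane were lower in large numbers. Of 58 potassium channel genes, 20 fell and none rose (34.5% called, beside 12.3% of all genes), with a median of -0.22. Kcnj4, an inward rectifier, had 188, 174, 180 and 172 CPM in R6/2 libraries, against 266, 292, 318 and 293 CPM in NCAR libraries (-0.71 ± 0.06, limma, adjusted p = 7.59e-05). Kcnab1, a cytoplasmic subunit of Shaker-type channels, had 409 to 463 CPM in R6/2 libraries, against 687 to 705 CPM in NCAR libraries (-0.68 ± 0.05, limma, adjusted p = 4.17e-05). Kcnh4, of the ether-a-go-go family, had 14.9, 7.65, 14.8 and 8.72 CPM in R6/2 libraries, against 24.2, 32.7, 29.7 and 32.9 CPM in NCAR libraries (-1.43 ± 0.21, limma, adjusted p = 0.0017). All 3 genes were lower in every R6/2 library, which for Kcnh4 the ranking rule given below required. Kcnh4 was lowest in R6/2 replicates 2 and 4, without which it was at -0.99. The A-type current subunit Kcnip2 (-0.75) and the two-pore channel Kcnk2 (-0.60) also fell.

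Of 46 genes for sodium and calcium channels and calcium stores, 22 fell and 5 rose, with a median of -0.24. Called members made up 58.7% of the list, beside 12.3% of all genes. The lowest member, Ryr1, is also in the shared medium spiny neuron list. Atp2b1, a calcium pump of the plasma membrane, had 1348, 1410, 1526 and 1572 CPM in R6/2 libraries, against 2686, 2642, 2413 and 2471 CPM in NCAR libraries (-0.80 ± 0.07, limma, adjusted p = 6.89e-05). Cacnb3, a calcium channel beta subunit, had 90.5, 87.3, 89.0 and 84.7 CPM in R6/2 libraries, against 139, 137, 137 and 125 CPM in NCAR libraries (-0.61 ± 0.05, limma, adjusted p = 8.01e-05). Neither overlapped, and the calcium release channel Itpr1 (-0.61) fell beside Ryr1. The 5 that rose were the sodium channel genes Scn9a (0.65) and Scn3b (0.39), the cation channel Trpc7 (0.56) and the calcium channel subunits Cacng7 (0.42) and Cacna2d1 (0.30). Without R6/2 replicates 2 and 4, 15 of the list were called lower and 3 higher.

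Of 39 glutamate and GABA receptor genes, 12 fell and none rose (30.8% called, beside 12.3% of all genes), with a median of -0.10. Gabrd, the delta subunit of extrasynaptic GABA-A receptors, had 113, 97.6, 123 and 105 CPM in R6/2 libraries, against 178, 181, 197 and 198 CPM in NCAR libraries (-0.78 ± 0.07, limma, adjusted p = 0.000149). The metabotropic glutamate receptor Grm4 had 57.9 to 65.9 CPM in R6/2 libraries, against 94.2 to 110 CPM in NCAR libraries (-0.67), and the NMDA receptor subunits Grin1 (-0.30), Grin2a (-0.33) and Grin2b (-0.44) fell as well. The AMPA receptor subunits Gria1 (0.02) and Gria2 (0.10) were not called. Scaling by read totals gave 11 lower and 7 higher members in this list.

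Activity-regulated genes gave a mixed picture. Of 29 immediate early genes, 8 fell and none rose (27.6% called, beside 12.3% of all genes), with a median of -0.32. Homer1, a scaffold of metabotropic glutamate receptors, had 287, 288, 329 and 348 CPM in R6/2 libraries, against 526, 573, 553 and 539 CPM in NCAR libraries (-0.81 ± 0.07, limma, adjusted p = 7.59e-05). The transcription factor Egr3 had 67.2, 46.0, 67.6 and 51.1 CPM in R6/2 libraries, against 107, 118, 105 and 97.8 CPM in NCAR libraries (-0.90 ± 0.12, limma, adjusted p = 0.000939). Both were lower in every R6/2 library. Fos was not called and spanned 3.88 to 25.6 CPM in R6/2 libraries and 3.38 to 26.4 CPM in NCAR libraries, and Npas4 spanned 1.28 to 22.4 CPM in R6/2 libraries and 5.98 to 67.3 CPM in NCAR libraries. Without R6/2 replicate 2, 4 members were called lower, without NCAR replicate 2, 5 were, and without R6/2 replicates 2 and 4 together 5 were, with a list median of 0.04.

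Neuropeptides and interneuron genes fell in part. Of 30 neuropeptide and secreted precursor genes tested, 11 fell and 1 rose (40% called, beside 12.3% of all genes), with a median of -0.38. Crh, corticotropin-releasing hormone, had 0.312, 0.128, 0.463 and 0.112 CPM in R6/2 libraries, against 2.01, 3.18, 3.83 and 2.61 CPM in NCAR libraries (-3.68 ± 0.46, limma, adjusted p = 0.000639). It was thus close to the lowest measured levels in R6/2 and several-fold higher in every NCAR library, so the size of this difference is uncertain. The gene would not have passed the filter on low values without its NCAR libraries. Scg2 (0.39), a secretogranin of dense-core vesicles, was the member that rose. Of 26 interneuron genes, 12 fell and none rose (46.2% called, beside 12.3% of all genes), with a median of -0.34. Th, the tyrosine hydroxylase of a small interneuron class and of dopamine fibres, had 3.58, 3.47, 2.68 and 4.01 CPM in R6/2 libraries, against 7.48, 6.98, 5.93 and 7.43 CPM in NCAR libraries (-1.03 ± 0.16, limma, adjusted p = 0.00208). Nos1 (-0.48), Chat (-0.43) and Pvalb (-0.41), which mark nitric oxide, cholinergic and fast-spiking interneurons, fell, while Sst (-0.01) and Npy (-0.14) were not called. Leaving out 1 library left 5 to 11 interneuron genes called lower, with 7 without NCAR replicate 1 or 3, 6 without NCAR replicate 2, 5 without NCAR replicate 4 and 6 without R6/2 replicate 2. For the peptide list it left 6 to 10, with 7 without NCAR replicate 1 and 6 without NCAR replicate 3 or R6/2 replicate 2. Without R6/2 replicates 2 and 4 together, 6 interneuron genes and 6 peptide genes were called lower and no peptide gene higher.

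General neuronal genes moved in both directions, with 37.5% of the pan-neuronal list called, beside 12.3% of all genes. Of 24 pan-neuronal genes, 6 fell and 3 rose, with a median of -0.09, and their summed level overlapped between the genotypes at 8711 to 9239 CPM in R6/2 libraries and 9212 to 9770 CPM in NCAR libraries. Stmn2, a regulator of axonal microtubules, had 112, 118, 106 and 127 CPM in R6/2 libraries, against 78.3, 75.5, 72.6 and 68.6 CPM in NCAR libraries (0.65 ± 0.07, limma, adjusted p = 0.000228). Syp (0.42), a synaptic vesicle protein, and Gap43 (0.34), a growth cone protein, rose too. The complexin Cplx2 (-0.62) and the neurofilament gene Nefm (-0.60) were among those that fell, and Snap25 (0.01) and Rbfox3 (-0.22) were not called.

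Astrocyte genes fell in part, and the calls in other glial and vascular lists changed with the libraries used. The shares below can be read against the 7.74% of all genes called lower and 4.59% called higher. Of 30 astrocyte genes, 9 fell and none rose, with a median of -0.23, led by Itih3, a subunit of a matrix-binding inhibitor. Itih3 had 14.4, 16.2, 15.3 and 10.6 CPM in R6/2 libraries, against 22.7, 29.4, 40.7 and 35.0 CPM in NCAR libraries (-1.17 ± 0.18, limma, adjusted p = 0.00201). Gfap, the intermediate filament that rises in reactive astrocytes, had 89.3, 65.4, 69.2 and 51.8 CPM in R6/2 libraries, against 164, 132, 90.9 and 128 CPM in NCAR libraries (-0.90 ± 0.18, limma, adjusted p = 0.00955). It was lower in every R6/2 library, and its highest level was in NCAR replicate 1. The Gfap call was lost without R6/2 replicates 2 and 4 (-0.68, limma, adjusted p = 0.0742). The bicarbonate transporter Slc4a4 (-0.46) and the sodium pump subunit Atp1b2 (-0.57) fell, and the glutamate transporters Slc1a2 (-0.17) and Slc1a3 (0.02) were not called. The astrocyte list had 6 members called lower without R6/2 replicates 2 and 4.

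Of 30 myelin genes 2 fell, Hapln2 (-0.63) and Aspa (-0.56), with a median of -0.37, beside the low summed level of R6/2 replicates 2 and 4 given above. Without R6/2 replicate 3, 18 were called lower, and without replicates 2 and 4 together none was, with a median of -0.09. Of 23 endothelial and mural genes 4 fell, among them the tight junction gene Cldn5 (-0.62), and 2 were called without R6/2 replicate 2 or 4 or NCAR replicate 2, 3 or 4. Without R6/2 replicates 2 and 4 together, the endothelial and mural list had 1 member called lower and 1 higher, with a median of -0.02 in place of -0.34. Of 25 microglial genes 1 fell, Aif1 (-0.57), of 23 genes of oligodendrocyte precursors 1 rose, Lhfpl3 (0.26), and 1 fell, Cd9 (-0.35), and of 22 ependymal, choroid plexus and subventricular zone genes 1 rose and 3 fell, with none higher and 2 lower without R6/2 replicates 2 and 4. The Lhfpl3 call was lost without R6/2 replicate 1 or 3 or NCAR replicate 2, 3 or 4, and the Cd9 call without R6/2 replicate 2, 3 or 4 or NCAR replicate 1, 2 or 3. Of 27 genes of neighbouring brain regions 1 was called lower, Calb2 (-0.69), and that call was lost in each fit that left out 1 library other than R6/2 replicate 3. Of 3 blood genes none was called. None of 25 interferon response genes was called. Their summed level was 614 CPM in R6/2 replicate 4 and 178 to 238 CPM in the other R6/2 libraries, against 1101 CPM in NCAR replicate 1 and 191 to 245 CPM in the other NCAR libraries. Their median was -0.37, and 0.18 without NCAR replicate 1. Of 31 reactive astrocyte genes 5 fell and none rose, with 3 called without R6/2 replicate 2 or NCAR replicate 4 and none without R6/2 replicates 2 and 4 together. Their summed level was 254 to 345 CPM in R6/2 libraries, against 783 CPM in NCAR replicate 1 and 334 to 364 CPM in the other NCAR libraries.

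Sterol genes fell in part, with 36.7% of the list called, beside 12.3% of all genes. Called members made up 3.64% of the oxidative phosphorylation list, 1.32% of the ribosomal protein list and 5.71% of the chaperone list. The shares were 15% for chromatin repressors and 15.8% for circadian genes, beside the same 12.3%. Of 30 sterol synthesis and uptake genes, 11 fell and none rose, with a median of -0.18. Srebf2, the transcription factor that drives sterol synthesis, had 79.1, 92.7, 82.6 and 91.3 CPM in R6/2 libraries, against 124, 132, 135 and 130 CPM in NCAR libraries (-0.59 ± 0.06, limma, adjusted p = 0.000228). The groups did not overlap. Without NCAR replicate 3 or 4, 7 of these genes were called, without R6/2 replicate 2, 6, without R6/2 replicates 2 and 4 together, 5, and by read totals 7. Of 55 nuclear genes of oxidative phosphorylation 2 fell, of 76 ribosomal protein genes 1 rose, and of 35 chaperones 1 rose and 1 fell, while 12 chaperones were called higher by read totals and 5 without R6/2 replicate 1. The ribosomal protein call was lost without R6/2 replicate 2, 3 or 4 or NCAR replicate 2, 3 or 4. Of 40 chromatin repressor genes, 2 rose and 4 fell, with 1 lower call without R6/2 replicate 2, 3 or 4 or NCAR replicate 2, 3 or 4 and with 8 higher and 1 lower by read totals. Of 19 circadian genes 3 fell, among them Npas2 (-0.70), a partner of the clock protein BMAL1, and 1 did without R6/2 replicates 2 and 4.

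Of 33 genes for huntingtin interactors and repeat instability, 3 rose and 3 fell. Called members made up 18.2% of the list, beside 12.3% of all genes, a difference that was not tested. Over all genes, 4.59% were called higher and 7.74% lower. Without R6/2 replicates 2 and 4, 2 members of the list rose and 1 fell. Rasd2, a striatal GTPase that binds huntingtin, had 405, 507, 505 and 552 CPM in R6/2 libraries, against 865, 930, 850 and 884 CPM in NCAR libraries (-0.85 ± 0.08, limma, adjusted p = 0.00018). Every R6/2 library was lower than every NCAR library, and the mismatch repair gene Msh3 (0.10) was not called.

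The genes with the largest differences over all were ranked among called genes of at least 5 CPM on average whose groups did not overlap. The lowest was Abhd11os, a noncoding gene named for lying opposite Abhd11, with 1.96, 1.33, 3.11 and 1.21 CPM in R6/2 libraries, against 15.5, 12.5, 12.2 and 10.7 CPM in NCAR libraries (-2.83 ± 0.27, limma, adjusted p = 0.000149). Whether the counting used strand is not stated, so reads of the 2 genes may be mixed, and Abhd11 itself was not called (-0.13). After Ryr1 came Dmkn (-1.95), a secreted protein known from skin, Ankrd35 (-1.66), Ace (-1.62), the angiotensin-converting enzyme, the Ras-like GTPase Rasl10a (-1.58), the polysialyltransferase St8sia2 (-1.55) and the replication checkpoint gene Clspn (-1.49). Scn4b, the activin subunit Inhba (-1.45), Kcnh4, the tyrosine phosphatase Ptpn7 (-1.42), the integrin Itga5 (-1.42), Pde10a and Ddit4l (-1.38), an inhibitor of mTOR signalling, completed the 15 lowest. Without R6/2 replicates 2 and 4 all 15 were still called lower. Dmkn (-2.11), Ace (-2.16) and Pde10a (-1.43) then differed more. The rest differed less, among them Abhd11os (-2.35), Rasl10a (-1.20), St8sia2 (-1.15) and Ptpn7 (-0.86).

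The 15 highest had smaller differences, between 0.71 and 1.21. Slitrk6, a membrane protein with leucine-rich repeats that acts in neurite growth, had 17.5, 30.8, 17.0 and 28.2 CPM in R6/2 libraries, against 10.6, 10.4, 9.80 and 8.41 CPM in NCAR libraries (1.21 ± 0.19, limma, adjusted p = 0.00234). Pcdh20, a protocadherin outside the clustered families, had 49.3, 79.5, 39.4 and 78.5 CPM in R6/2 libraries, against 26.5, 22.7, 31.0 and 25.6 CPM in NCAR libraries (1.17 ± 0.20, limma, adjusted p = 0.00453). Both were highest in R6/2 replicates 2 and 4, the libraries with low myelin genes, and higher in all 4 R6/2 libraries, as the ranking rule required. Lrrn3, another leucine-rich repeat membrane protein, had 136, 159, 149 and 164 CPM in R6/2 libraries, against 80.7, 80.7, 83.7 and 73.1 CPM in NCAR libraries (0.93 ± 0.07, limma, adjusted p = 3.65e-05). Sfmbt2, a Polycomb group gene, had 12.9, 15.2, 12.4 and 17.1 CPM in R6/2 libraries, against 7.95, 7.65, 7.26 and 7.02 CPM in NCAR libraries (0.93 ± 0.12, limma, adjusted p = 0.000714). Both were also highest in R6/2 replicates 2 and 4. Without those 2 libraries the differences were 0.83 for Slitrk6, 0.75 for Pcdh20, 0.85 for Lrrn3 and 0.76 for Sfmbt2, all still called by limma. Among the others were the giant muscle protein gene Ttn (1.13), Fam196b (1.01), the spindle gene Tpx2 (0.97) and the chromatin factor Arid5b (0.85). The rest were the urea cycle gene Asl (0.82), the receptor sorting gene Gprasp2 (0.78), Fam126a (0.77) and the kinase gene Nek10 (0.75), with the clustered protocadherin Pcdhb4 (0.73), the splicing regulator Rbm11 (0.72) and the zinc finger gene Zfp184 (0.71). Of the 15, Nek10 (limma, adjusted p = 0.0561), Pcdhb4 (limma, adjusted p = 0.144) and Rbm11 (limma, adjusted p = 0.0843) were not called without R6/2 replicates 2 and 4.

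**Figure D3:**
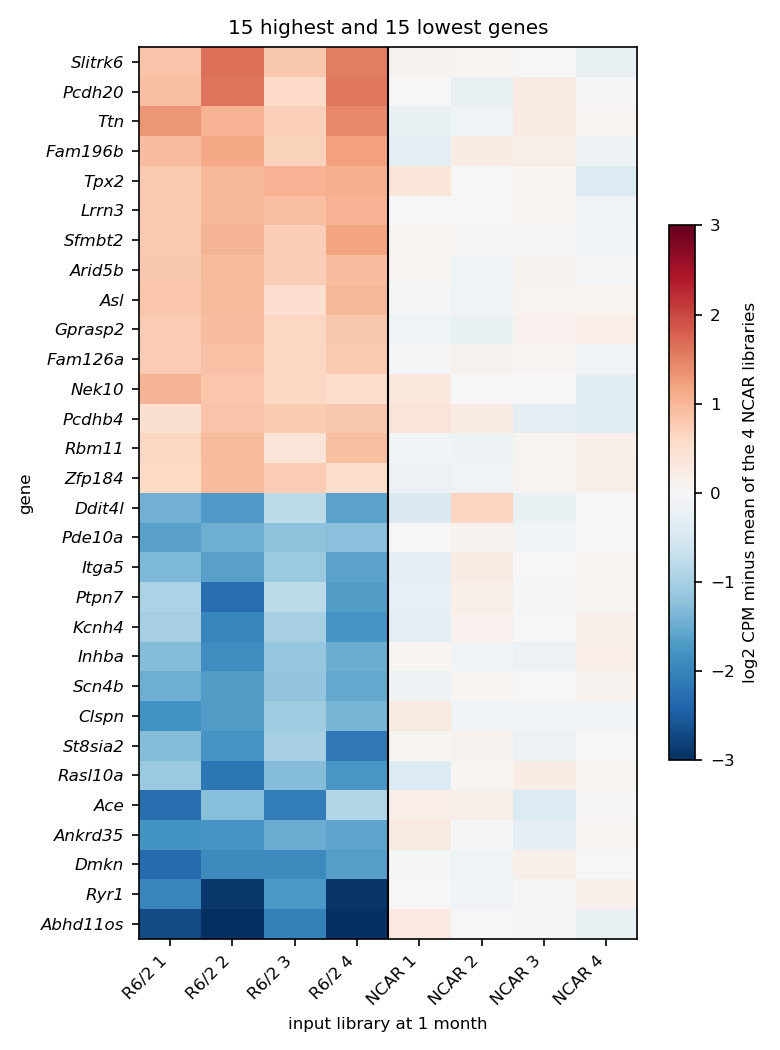
Log2 CPM of the 15 highest and 15 lowest genes in each input library, 4 R6/2 libraries left and 4 NCAR libraries right, as the difference from the mean of the 4 NCAR libraries (colour, -3 to 3). Only genes whose groups did not overlap were ranked, so the direction is the same in all 4 R6/2 libraries by the choice of genes. Slitrk6, Pcdh20, Ryr1 and Abhd11os are furthest out in R6/2 replicates 2 and 4.

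Of 58 clustered protocadherin genes, which give neurons cell-surface identities, 4 rose and 1 fell, with a median of 0.15. Called members made up 8.62% of the list, which is below the 12.3% of all genes tested. The 4 were Pcdhb4, Pcdhb12 (0.41), Pcdha11 (0.52) and Pcdhgb1 (0.59), and near-identical exons in this family can split reads between members. Without NCAR replicate 3 or 4, R6/2 replicate 2 or R6/2 replicate 4, none was called higher, and 1 was without NCAR replicate 2. Of 16 developmental transcription factors tested, Wt1 and Irx5 were called higher at very low levels (12.5% called, beside 12.3% of all genes). Each passed the filter on low values through its R6/2 libraries only, as Gm12695 did. Neither was called without R6/2 replicate 2 or without R6/2 replicates 2 and 4, and Irx5 was also lost without R6/2 replicate 3 or 4 or NCAR replicate 2, 3 or 4. Both are left out by a filter of at least 1 CPM on average. Wt1 had 0.511, 0.816, 0.595 and 0.762 CPM in R6/2 libraries, against 0.175, 0.00, 0.0494 and 0.0516 CPM in NCAR libraries, and Irx5 had 0.312 to 0.628 CPM in R6/2 libraries, against 0.0494 to 0.204 CPM in NCAR libraries.

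The base composition of transcripts moved with the genotype. The median GC content of the longest transcript was 46.2% among genes called higher, 54.0% among those called lower and 49.8% over all tested, with values for 95.4% of genes. With genes split into 10 bins of equal size by GC content, 13 genes were called higher and 257 lower in the bin of highest GC content, and in the lowest bin 114 were called higher and 58 lower. All 4 NCAR libraries were above the mean of the 8 libraries in the highest bin, by 0.061 to 0.102 on the log2 scale, whereas R6/2 replicates 1 to 4 lay at -0.00156, -0.0475, -0.082 and -0.16. With the GC curve of each library taken off, 1573 genes were called, 1327 of them among the 1910, and the shared medium spiny neuron list had 36 of 40 members called lower with a median of -0.67.

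**Figure D4:**
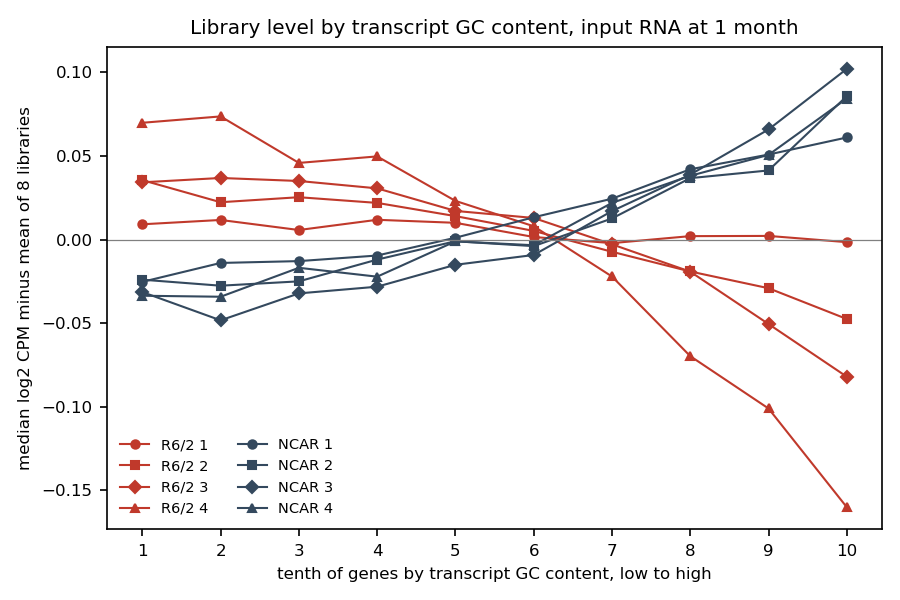
Median log2 CPM of genes in each of 10 equal bins of transcript GC content, as the difference from the mean of the 8 input libraries at 1 month, with R6/2 libraries in red and NCAR libraries in dark. The curves cross near the middle, NCAR libraries end at 0.061 to 0.102 in the highest bin, and R6/2 replicate 4 is lowest there at -0.16.

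Promoter sequence was set beside these lists with RefSeq windows of GRCm38.p6, from 250 bases before to 50 after the start of each gene, for the 9110 tested genes with 1 window. The GC box GGGCGG, the site read by Sp1, was present on either strand in 60.2% of windows of genes called higher, 70.3% of those called lower and 64.3% of those tested, beside 35.7% of all 32851 windows. The cyclic AMP response element half-site TGACG was present in 35.3%, 25.6% and 31.0% of the same 3 sets of tested genes and in 20.8% of all windows. The TATA box TATAAA gave 6.95%, 7.40% and 7.14%, beside 13.6% of all windows. Median GC content of the windows was 59.7%, 65.7% and 61.0% in the same 3 sets. Windows are shown for the 2 highest-ranked genes and for the 2 lowest-ranked genes of the shared medium spiny neuron list. They were chosen because they span this range of composition, with 38.3% GC in Slitrk6, 43.7% in Pcdh20, 56.7% in Ryr1 and 66.3% in Scn4b. Capitals mark the GC box, which these letters hold 2 times in Ryr1 and not in the other windows.
Slitrk6 promoter, chr14:110755100-110755399, minus strand: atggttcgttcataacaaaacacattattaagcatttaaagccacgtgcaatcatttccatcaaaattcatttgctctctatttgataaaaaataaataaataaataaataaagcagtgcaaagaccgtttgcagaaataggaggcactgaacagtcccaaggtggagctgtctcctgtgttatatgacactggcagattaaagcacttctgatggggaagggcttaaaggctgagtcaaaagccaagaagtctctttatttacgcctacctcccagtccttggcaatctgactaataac
Pcdh20 promoter, chr14:88471347-88471646, minus strand: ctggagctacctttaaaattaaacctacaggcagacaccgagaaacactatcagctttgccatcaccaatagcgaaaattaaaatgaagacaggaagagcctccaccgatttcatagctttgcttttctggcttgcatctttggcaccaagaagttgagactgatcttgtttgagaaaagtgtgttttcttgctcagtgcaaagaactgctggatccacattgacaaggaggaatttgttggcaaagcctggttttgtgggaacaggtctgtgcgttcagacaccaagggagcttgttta
Ryr1 promoter, chr7:29125102-29125401, minus strand: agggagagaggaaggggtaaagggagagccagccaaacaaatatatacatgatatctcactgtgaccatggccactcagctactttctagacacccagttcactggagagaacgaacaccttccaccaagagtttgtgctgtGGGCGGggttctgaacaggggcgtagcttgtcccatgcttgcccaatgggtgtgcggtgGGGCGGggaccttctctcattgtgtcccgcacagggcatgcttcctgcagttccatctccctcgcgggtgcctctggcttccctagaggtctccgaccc
Scn4b promoter, chr9:45138374-45138673, plus strand: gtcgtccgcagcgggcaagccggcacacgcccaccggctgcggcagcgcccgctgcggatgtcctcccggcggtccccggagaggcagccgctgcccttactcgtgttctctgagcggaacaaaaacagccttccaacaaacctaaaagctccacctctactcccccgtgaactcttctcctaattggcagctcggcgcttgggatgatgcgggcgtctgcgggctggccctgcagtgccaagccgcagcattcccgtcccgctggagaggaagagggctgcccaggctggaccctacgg

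The same comparison at later ages came from another sequencing run, so age and run cannot be told apart, and no test was made between ages. Of genes called lower at 1 month and tested at both ages, 852 of 1195 (71.3%) were also called lower at 2 months, which is 57.7% of those lower at 2 months, and 902 of 1194 (75.5%) were called lower at 3 months, which is 37.3% of those lower then. Of genes called higher at 1 month, 269 of 711 (37.8%) were called higher at 2 months, 27.8% of that list, and 381 of 711 (53.6%) at 3 months, 21.2% of that list. Opposite calls were few, 1 higher gene and no lower gene at 2 months and 3 higher genes and 1 lower gene at 3 months. Over all genes, 16% were called at 2 months and 28.1% at 3 months, with 9.66% and 16.3% lower and 6.33% and 11.8% higher. Without R6/2 replicate 1, 1616 in place of 2455 genes were called at 2 months, and without NCAR replicate 2, 2877 in place of 4318 were called at 3 months.

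Medium spiny neuron genes had log2 fold changes further below 0 at the later ages, a difference that was not tested. The median of the shared list was -0.69 at 1 month, -1.20 at 2 months and -1.26 at 3 months, and that of the indirect list -0.73, -1.20 and -1.17. The direct list had medians of -0.10, -0.11 and -0.12 at the 3 ages. Pde10a differed by -1.40, -2.07 and -2.28, and Scn4b by -1.47, -2.86 and -3.16. Immediate early genes had a median of -0.32 at 1 month, -1.23 at 2 months and -0.90 at 3 months, with 8, 21 and 16 of 29 called lower. Among the higher genes, Sfmbt2 differed by 0.93, 1.49 and 1.87, and Lrrn3 by 0.93, 0.94 and 1.12. Pde4d was called higher at 1 month (0.60) and was not called at 2 months (0.14) or 3 months (0.35), and Arid5b was called at 1 month (0.85) and 3 months (0.77) and not at 2 months (0.50).

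In IP RNA of the same age and run, 12 of 15119 genes were called (0.0794%), 2 higher (0.0132%) and 10 lower (0.0661%). Leaving out 1 IP library gave 34 calls without NCAR IP replicate 1, 6 without R6/2 IP replicate 3, 4 without R6/2 IP replicate 4, 3 without NCAR IP replicate 2 and 2 without R6/2 IP replicate 1 or NCAR IP replicate 3 or 4. Pde10a (-0.95, limma, adjusted p = 0.00358), Ryr1 (-1.71, limma, adjusted p = 0.0315) and Ppp1r1b (-0.69, limma, adjusted p = 0.0315) were among the lower ones, and Gm12695 (5.52, limma, adjusted p = 1.82e-05) and Ttn (1.51, limma, adjusted p = 0.0123) were the 2 higher ones. Of the genes called lower in input, 9 of 1190 (0.756%) were called lower in IP, 90.0% of the IP list, and the median of the 1190 was -0.46 in input and -0.20 in IP. Tested directly, no gene's genotype difference differed between input and IP (limma interaction term over 15901 genes, 1349 at an unadjusted p under 0.05), and voom weights also called 0. The smallest adjusted p was 0.0925 in limma, which several genes shared, among them Cnr1 (-0.72) and Abhd11os (-1.88). A miss of this threshold does not show that the 2 RNA types moved alike.

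**Figure D5:**
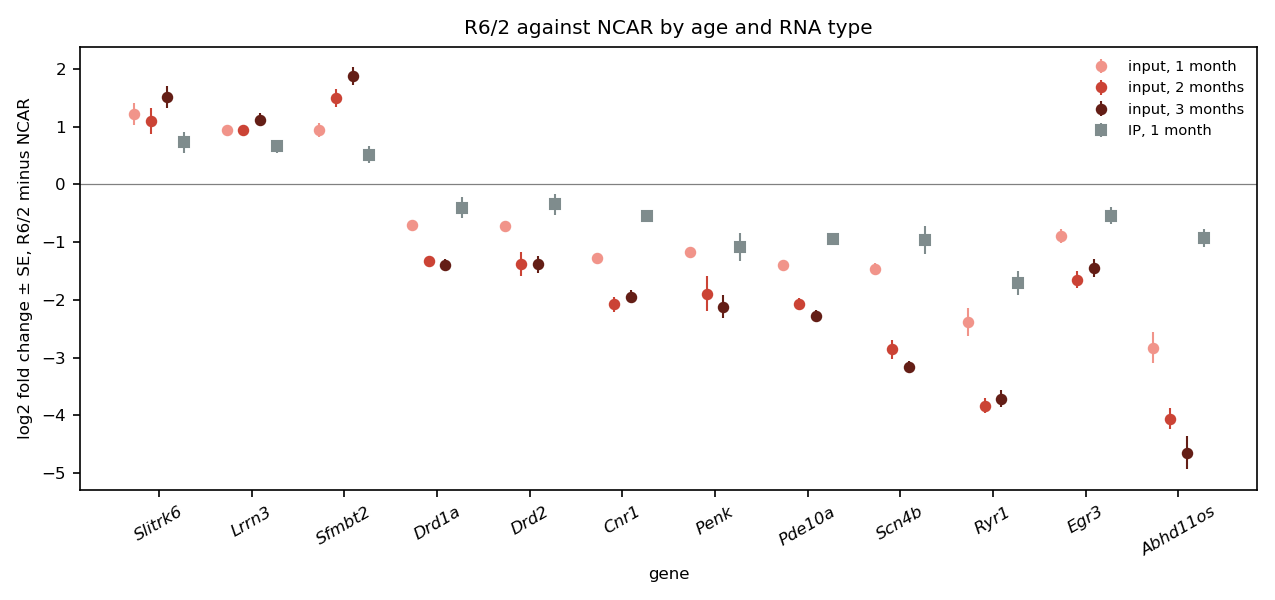
Log2 fold change ± SE of R6/2 minus NCAR for 12 genes, in input RNA at 1, 2 and 3 months (light to dark red circles) and in IP RNA at 1 month (grey squares). Scn4b lies at -1.47, -2.86 and -3.16 in input at the 3 ages and at -0.97 in IP at 1 month, and Slitrk6, Lrrn3 and Sfmbt2 lie above 0 in all 4 comparisons.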

How the data were processed

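PolyA RNA of striatum was sequenced in input and IP libraries. The deposited files hold log2 CPM per gene, one file per library, and the submitters' processing notes name STAR, HTSeq, edgeR, limma and mm10 without versions. The strand used in counting is not given in the sources used here. The log2 values deposited by the authors gave whole reads for 100% of values within 0.01 once each library's size was recovered. Those reads were filtered (at least the CPM of 10 reads at median depth in as many libraries as the smaller group has, and 15 reads in total), scaled by the trimmed mean of M values, put on the log2 CPM scale with a prior count of 0.25 and tested with limma 3.58.1 in R 4.3.3, using an intensity trend and Benjamini-Hochberg adjustment over all genes, separately for each age and RNA type. The test was first run on simulated data. A count model was not run because the deposited unit is log2; limma with voom weights on the recovered reads is an alternative, as are other scalings, filters, priors, a fit of all 16 libraries of the run and leaving out each library.

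Leading genes are the 15 highest and 15 lowest called genes of at least 5 CPM without overlap, passing over predicted gene symbols, and the up to 4 genes of smallest p in each gene list. For the 15 highest and 15 lowest, the lack of overlap follows from this rule, also where such a gene is described with its list. Some genes that this rule names are not reported here. Other list members in the text were chosen after their values were seen. The comparison and the gene lists were chosen with earlier results of these data known. List symbols absent from the files were matched through older RefSeq symbols for 3 genes, and 2 symbols that occur more than 1 time were left out.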

Additional observations from a re-analysis of the deposited data

Results flagged for a closer look

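Among 280 sets of 4 libraries, one for each genotype of 140 named genes, a single library was flagged as apart from the other 3 in 14. This is about as many as chance gives, which is about 1 in 20. The rule sets the gap against the range of the 4 values, so a small gap is flagged where the other 3 lie close together. The values follow in CPM. R6/2 replicate 4 was low for the potassium channel Kcnc1 at 78.4 (others 92.0 to 93.1), the GABA transporter Slc6a11 at 47.9 (61.2 to 64.0) and the Polycomb gene Cbx6 at 315 (370 to 382). R6/2 replicate 1 was low for the striatal transcription factor Six3 at 10.4 (11.5 to 11.7). NCAR replicate 1 was high for Clspn at 32.2 (24.9 to 25.5) and low for the pentraxin Nptx2 at 16.7 (23.7 to 24.6). NCAR replicate 2 was high for Kcnk2 at 145 (129 to 130), Grm4 at 110 (94.2 to 96.5), Six3 at 18.8 (13.0 to 13.4) and Cbx6 at 508 (446 to 453), and low for Lhfpl3 at 59.7 (62.4 to 62.5). NCAR replicate 3 was high for Penk at 1452 (1382 to 1388) and Cldn5 at 41.5 (30.1 to 31.6), and NCAR replicate 4 was low for Cacnb3 at 125 (137 to 139).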

How the results depend on the processing

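The count of 1910 called genes in input RNA at 1 month stayed within 1.5-fold with the deposited scaling (1889), no filter (1874), a prior count of 2 (1924), voom weights (1994), a mean of at least 1 CPM (1979), all 16 libraries in 1 fit (1340) and GC correction (1573). It was 3045 by read totals, which moved the median of all genes to 0.08, and 991 without R6/2 replicates 2 and 4. Leaving out 1 library gave 1093 to 2029 genes, and 905 of the 1910 (47.4%) were called with the same sign in all 8 such fits. In IP RNA at 1 month the count of 12 became 7 with voom weights, 7 by read totals and 2 to 34 with 1 library left out. By read totals, 3880 genes were called at 2 months, 72.8% of them higher, and 5893 at 3 months, 67.8% higher, with all-gene medians of 0.19 and 0.17, and leaving out 1 library gave 1616 to 2449 and 2877 to 5172. The input and IP differences differed in 0 genes, and in 0 to 6 with 1 library left out. Htt, which was not called, was between -0.0392 and 0.0178 with 1 library left out, above 0 without NCAR replicate 2, and at 0.0596 by read totals. The causes were not tested. Read totals, GC correction and leaving out R6/2 replicates 2 and 4 together were chosen after seeing the data. No paired analysis was possible because the labels give no replicate numbers and nothing ties libraries across groups.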

Other observations

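Of 526 genes tested on the X chromosome, 60 (11.4%) were called higher and 20 (3.8%) lower in R6/2 at 1 month, beside 4.59% and 7.74% over all genes, a difference that was not tested. The X counts were 118 higher and 12 lower by read totals, beside 13.8% and 5.81% over all genes, and 25 higher and 6 lower without R6/2 replicates 2 and 4, beside 1.64% and 4.67%. Leaving out 1 library gave 31 to 61 higher X genes, with 33 without R6/2 replicate 2, 35 without NCAR replicate 2 and 31 without NCAR replicate 4. On the Y chromosome Ddx3y had 139, 147, 150 and 146 CPM in R6/2 libraries, against 129, 97.3, 127 and 89.9 CPM in NCAR libraries (0.41 ± 0.11, limma, adjusted p = 0.0314). NCAR replicates 2 and 4 were the low ones. The call was lost without R6/2 replicate 2, 3 or 4 or NCAR replicate 2 or 4 and without R6/2 replicates 2 and 4 together. Of 5 genes in the Y-linked and X-inactivation list 3 were called higher, and none was without NCAR replicate 4 or with GC correction. The labels give no sex.

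Some ribosomal protein genes were split between libraries of 1 genotype, and they are named here after their values were seen. Rps2 had 56.1, 53.8, 58.3 and 64.0 CPM in R6/2 libraries, against 51.4, 2.83, 56.6 and 2.86 CPM in NCAR libraries, and was not called. Rps18 had 15.8, 17.6, 19.1 and 19.3 CPM in R6/2 libraries, against 26.4, 3.48, 20.8 and 4.57 CPM in NCAR libraries. Both were low in NCAR replicates 2 and 4, the libraries that were also low in Ddx3y. Rpl3 had 62.3, 36.1, 4.99 and 68.1 CPM in R6/2 libraries, against 30.3, 6.78, 30.5 and 7.20 CPM in NCAR libraries. Such genes have many near-identical copies, between which reads can be split. The cause of the differences between libraries of 1 genotype was not tested.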
